A study of Homo sapiens with 4 samples.

Results

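The genes described here encode the main families of splicing regulators that coat pre-mRNA: the heterogeneous nuclear ribonucleoproteins (hnRNPs) with their relatives of the PTBP and PCBP families, and the serine/arginine-rich (SR) proteins with the related TRA2 proteins. They were taken by symbol, from protein-coding entries named HNRNP, SRSF, PTBP or PCBP together with *TRA2A*, *TRA2B*, *SYNCRIP* and *RALY*, which gave 46 of the 40205 genes listed (19784 of them annotated as mRNA). The values come from 4 RNA-seq libraries of human non-small cell lung cancer cells that were collected 24 h after transfection. Of these, 2 had a negative control siRNA (NC 1 and NC 2) and 2 an siRNA against circZFR (si-circZFR 1 and si-circZFR 2). CircZFR is a circular RNA made from exons of *ZFR*. No genotype or further agent distinguishes the groups, and no source says whether the 2 libraries of a group came from separate cultures, so the p-values measure the spread between these libraries, which may be technical. The question put to these genes was whether the mRNA of *HNRNPLL*, whose protein the study examined as a partner of circZFR, or of any other regulator differed after circZFR was silenced.

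Most hnRNPs bind exonic or intronic silencers and often favour exon skipping, while SR proteins bind exonic enhancers through RNA recognition motifs and favour inclusion through their arginine/serine-rich domains. Many of these genes control their own level by splicing in a poison exon, which sends the transcript to nonsense-mediated decay. The files give a single value per gene, so isoforms with and without such an exon were not told apart, and in bulk RNA fewer expressing cells and less RNA per cell cannot be told apart either. The si-circZFR duplex strand listed by the study is shown because it is the only agent that distinguished the groups, with its 2-base overhang in capitals:
si-circZFR: ccaagcuggcccuuacgucTT

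The 4 libraries held 11040050 to 12816868 reads, recovered from the deposited values, and the 46 genes took 0.610% to 0.714% of them. Levels are given as scaled RPKM, the deposited reads per kilobase and library size (RPKM) divided by a factor per library that ranged from 0.886 to 1.11. *ZFR*, the host gene of the targeted circle, stood at 25.8 (NC 1) and 32.5 (NC 2) scaled RPKM in the control cells, and at 5.21 (si-circZFR 1) and 4.61 (si-circZFR 2) in the silenced ones. Its log2 fold change, si-circZFR over NC on the log2(scaled RPKM + 1) scale (log2FC), was -2.34 (standard error 0.18, false discovery rate FDR = 0.0481 by limma, n = 2 per group), and the FDR was 0.144 without NC 2. The reads of *ZFR* were 1437 and 1740 in the controls and 284 and 267 in the si-circZFR libraries. By RT-PCR, the study saw no detectable change of *ZFR* with its siRNA in its cell lines. A value per gene does not separate circular from linear *ZFR* transcripts. Whether a lower host mRNA contributed to differences in other genes was not tested. The sample labels give H1299 cells and the series text gives A549, both non-small cell lung cancer lines, of which A549 is known to lack *CDKN2A*. *CDKN2A* was listed at 0 in all 4 libraries, and which line was used was not settled here. The epithelial keratin *KRT18* was at 1235 to 1770 scaled RPKM. The epithelial adhesion gene *EPCAM* was near the floor, at 0.394 and 0.410 in the controls and 1.81 and 2.65 in the si-circZFR libraries. These values rest on 4 and 4 reads in the controls and 18 and 28 in the si-circZFR libraries. *EPCAM* reached the level needed for testing only in the si-circZFR libraries, so no test result is read from it. *PTPRC* and *COL1A2*, which mark leukocytes and fibroblasts, were listed at 0 in every library, and *COL1A1* was at 0.624 to 1.88.

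The regulators spanned a wide range of levels. *PCBP1*, which binds C-rich RNA, had the highest mean level, at 222.0 (NC 1) and 269.7 (NC 2) scaled RPKM in the control cells and 207.6 (si-circZFR 1) and 135.4 (si-circZFR 2) after silencing. *HNRNPUL1*, a relative of the scaffold protein hnRNP U, followed at 153.9, 164.1, 159.2 and 150.5 in the same order. *HNRNPA2B1*, which encodes a core hnRNP that also takes part in RNA transport, was at 141.7, 133.2, 138.6 and 189.1. *PCBP2* was at 110.7, 134.6, 122.4 and 90.7, and *HNRNPC*, which encodes a core hnRNP that binds uridine tracts, at 118.2, 139.5, 88.4 and 96.0. Each gene's range over the 4 libraries overlapped that of its neighbour in this order, and *HNRNPC* and *PCBP1* among the 5 had both si-circZFR libraries below both NC libraries. At the low end, *HNRNPCP5*, *PCBP3* and *SRSF12* stayed below 1 scaled RPKM in every library and were not tested, which left 43 genes.

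**Figure D1:**
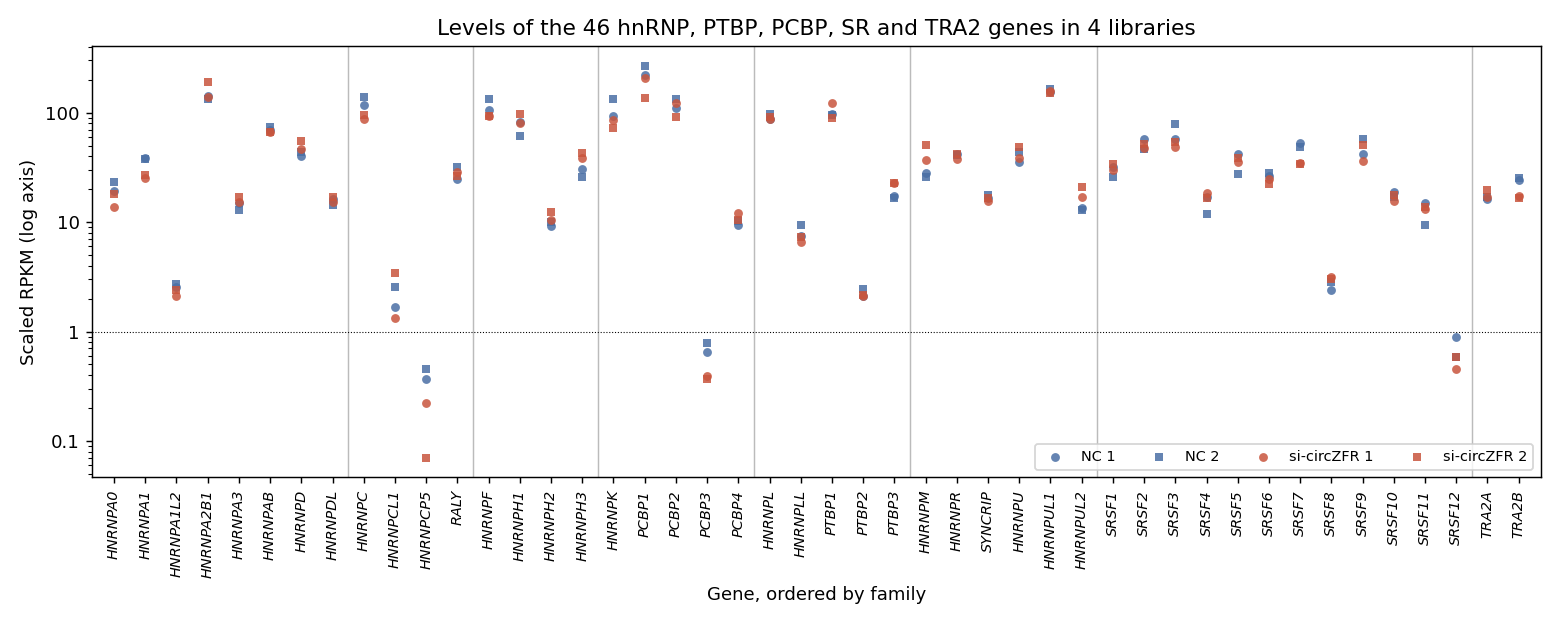
Scaled RPKM (log axis) of the 46 genes in each library, ordered by family, with vertical lines between families and a dotted line at 1. *PCBP1*, *HNRNPUL1* and *HNRNPA2B1* lie highest, the 4 libraries of a gene mostly lie close together, and *HNRNPCP5*, *PCBP3* and *SRSF12* lie under the dotted line.

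*HNRNPLL* (chromosome 2, 38561969 to 38603586 of GRCh38, minus strand), which encodes an RNA-binding protein known for exon skipping in the *PTPRC* transcript of lymphocytes, was among the weakly expressed genes, at rank 39 of the 46. It was at 7.49 (NC 1) and 9.32 (NC 2) scaled RPKM in the control cells and at 6.52 (si-circZFR 1) and 7.32 (si-circZFR 2) after silencing. Both si-circZFR libraries therefore lay below both controls, but si-circZFR 2 and NC 1 were close and the 2 controls differed more from each other than the nearest values of the groups. The reads behind these values were 183, 219, 156 and 186, for which counting alone gives an error of 6.76% to 8.01% per library.
The log2FC of *HNRNPLL* was -0.24 (standard error 0.18, 95% interval -0.68 to 0.19, FDR = 0.455 by limma), so that its difference was within the spread between libraries. The interval holds both a decrease and a smaller increase, so equal levels were not shown. In its cell lines, the study reported less HNRNPLL protein after circZFR was silenced, with its mRNA unaffected. Protein was not measured in these libraries. The estimate depended on the libraries, from -0.38 without NC 1 to -0.10 without NC 2, and was -0.07 without scaling.

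The paralog *HNRNPL*, a CA-repeat binding protein and the closest relative of *HNRNPLL*, was expressed at about an order of magnitude more, at 87.6 and 96.7 scaled RPKM in the controls and 87.1 and 91.9 after silencing. Its log2FC was -0.04 (95% interval -0.48 to 0.40, FDR = 0.912 by limma), and its sign differed between settings. *PTBP1*, which encodes the polypyrimidine tract binding protein that represses many exons, was at 96.6 and 95.6 in the controls and at 121.9 and 89.6 in the si-circZFR libraries, so si-circZFR 1 stood above and si-circZFR 2 below both controls. The log2FC of *PTBP1* was 0.12 (95% interval -0.42 to 0.66) and turned to -0.10 without si-circZFR 1, with 0.34 without si-circZFR 2. *PTBP2*, the paralog known from neurons, was at 2.11, 2.45, 2.11 and 2.17, from 85 to 97 reads per library. *PTBP3* was at 17.4 and 16.5 in the controls and at 22.8 in both si-circZFR libraries, which did not overlap. The log2FC of *PTBP3* was 0.40 (standard error 0.15, FDR = 0.209 by limma), short of the threshold after adjustment.

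Across the whole group no gene passed FDR under 0.05 with a log2FC beyond 1 in either direction, and the lowest FDR was 0.144. Over all 13885 genes tested, 8 passed, or 0.0576%, so a count of 0 among 43 is close to the background. That count of 8 was 1019 without NC 1, 0 without NC 2, 83 without si-circZFR 1 and 15 without si-circZFR 2, and no regulator passed in any of these fits or by limma-voom on recovered reads. At an unadjusted p under 0.05, 3 of the 43 were lower in the si-circZFR libraries (7.0%), against 11.8% of all genes, and 4 were higher (9.3%), against 9.51%. Both shares were at or below the background. These counts moved with single libraries, and so did the share over all genes. The 3 lower genes became 7 without NC 1 (18.6% of all genes), 0 without si-circZFR 1 (7.57% of all genes), 0 without si-circZFR 2 (5.41% of all genes) and 0 without scaling (6.94% of all genes). The 4 higher genes became 8 without NC 1 (16.7% of all genes), 0 without NC 2 (9.45%), 1 without si-circZFR 1 (5.25%) and 0 without si-circZFR 2 (3.50%).
Both si-circZFR libraries lay below both NC libraries for 14 of the 43 (32.6%), against 28.9% of all genes, and above both for 9 (20.9%), against 27.0%. The median log2FC was -0.04, against -0.01 over all genes tested, with 23 negative and 20 positive values between -0.56 and 0.66. Without scaling, the median of all genes was 0.15 and that of the regulators also 0.15, so the 2 medians stayed together, and negative log2FC near 0 given here for single genes and families change sign with that shift.

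**Figure D2:**
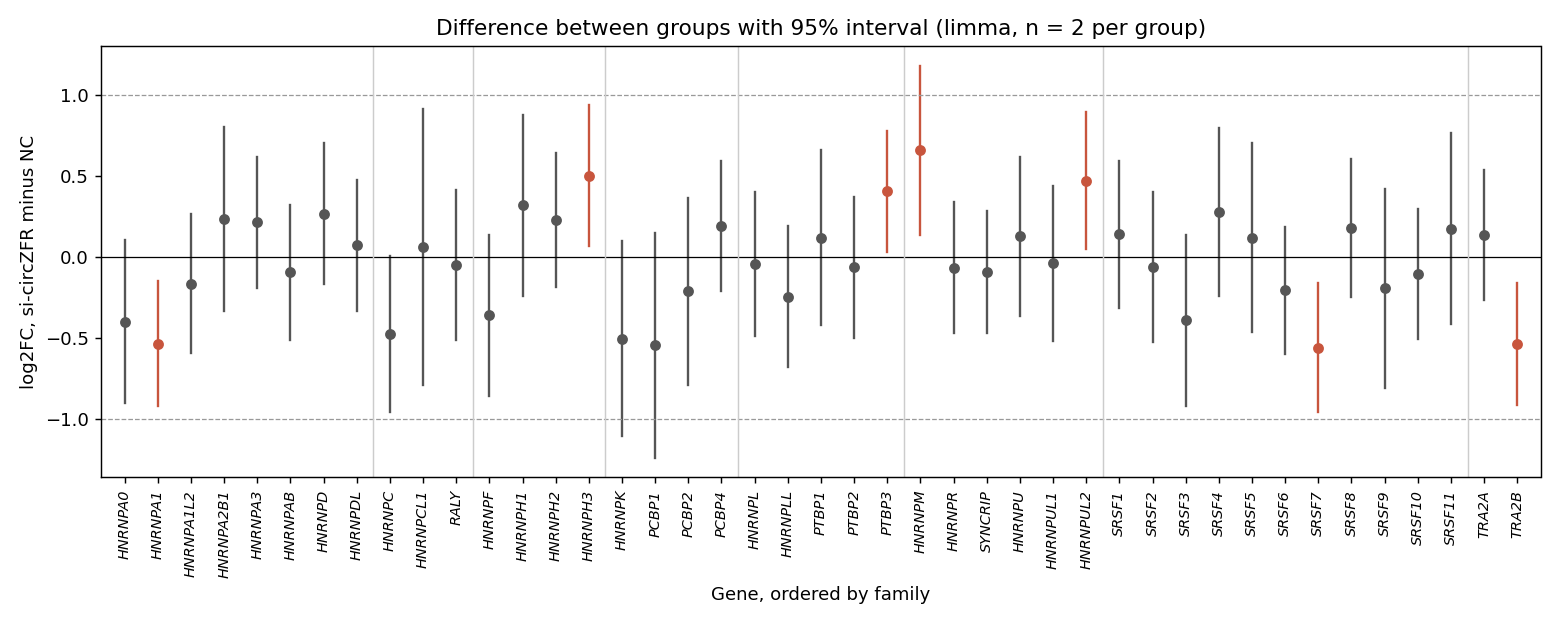
log2FC (si-circZFR minus NC, on the log2(scaled RPKM + 1) scale) of the 43 genes tested, ordered by family, with 95% intervals from limma over 2 libraries per group. Red marks an unadjusted p under 0.05 and dashed lines mark -1 and 1; the 7 red genes are *HNRNPA1*, *SRSF7* and *TRA2B* below 0 and *HNRNPM*, *HNRNPH3*, *HNRNPUL2* and *PTBP3* above it, and no estimate reaches a dashed line.

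Among the SR and TRA2 genes, *TRA2B* and *SRSF7* had the smallest p-values. *TRA2B* (chromosome 3, 185914558 to 185938103 of GRCh38, minus strand), whose protein activates exons with purine-rich enhancers and whose own poison exon is well known, was at 24.3 and 25.5 scaled RPKM in the controls, and at 17.2 and 16.5 after silencing. The groups did not overlap, and each was tight. The log2FC of *TRA2B* was -0.54 (standard error 0.15, FDR = 0.144 by limma). *SRSF7* (chromosome 2, 38743599 to 38751494 of GRCh38, minus strand), an SR protein with a zinc knuckle that also takes part in mRNA export, was at 53.0 and 48.9 in the controls and at 34.6 and 34.0 after silencing. The log2FC of *SRSF7* was -0.56 (standard error 0.16, FDR = 0.147 by limma). *SRSF7* lies 140 kb from *HNRNPLL* on the same chromosome.

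The other SR genes differed less between the groups. *SRSF3*, the smallest SR protein, had a log2FC of -0.39 with non-overlapping groups, but it stood at 57.9 and 78.9 scaled RPKM in the controls, so its 48.5 and 54.5 after silencing were nearer to NC 1 than NC 1 was to NC 2. *SRSF6* was also lower in both si-circZFR libraries, with a log2FC of -0.20, while *SRSF8* was higher in both, at 0.18. *SRSF1*, the classic activator of exon inclusion, and *SRSF2* had log2FC of 0.14 and -0.06 with overlapping groups. *SRSF9*, *SRSF10* and *TRA2A* were at -0.19, -0.10 and 0.13. Of the 11 SR genes tested, 6 had a negative and 5 a positive log2FC, with a median of -0.06.

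For several SR genes the controls differed from each other by more than the groups did. *SRSF11* was at 15.0 scaled RPKM in NC 1 and 9.32 in NC 2, while si-circZFR 1 and si-circZFR 2 were at 13.2 and 13.8, between them. *SRSF5* was at 42.2 and 27.5 in the controls and at 35.8 and 38.5 after silencing. *SRSF4* was at 16.9 and 11.8 in the controls and at 18.4 and 16.5 after silencing. In each of these genes NC 2 was the lowest library. *HNRNPH1* showed the same order among the hnRNPs, at 81.8 and 61.0 in the controls and 79.7 and 97.9 after silencing. *HNRNPK* and *SRSF9* had NC 2 as the highest library, by 0.52 and 0.45 over NC 1 on the log2 scale. Over the 43 genes, the difference between the 2 controls was larger than the group difference for 19 (44.2%), against 49.0% of all genes tested. The median size of the difference between controls was 0.17, and that of the group difference 0.20 (log2).

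**Figure D3:**
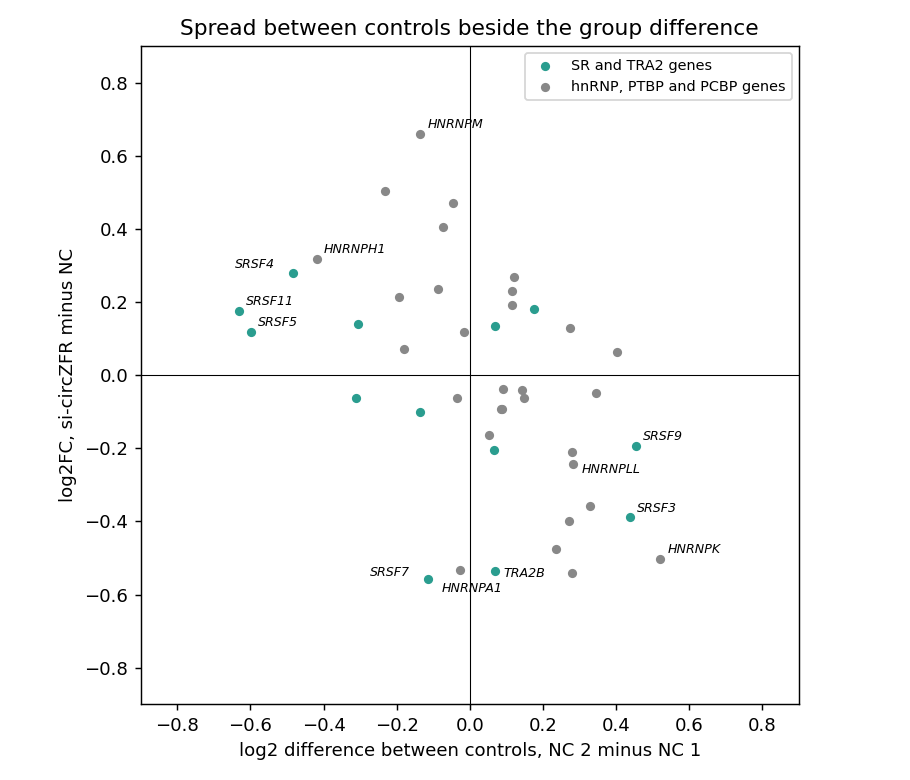
For each of the 43 genes, the log2 difference between the controls (NC 2 minus NC 1, horizontal) and the log2FC (si-circZFR minus NC, vertical), with SR and TRA2 genes in green; the axes share the 2 NC libraries. *SRSF11*, *SRSF5* and *SRSF4* lie far left at a small log2FC, while *TRA2B*, *SRSF7* and *HNRNPA1* lie low near the vertical line.

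In the hnRNP A/B and D family, *HNRNPA1* (chromosome 12, 54280193 to 54287088 of GRCh38, plus strand), an abundant shuttling repressor that acts against *SRSF1* on many exons, had the smallest p-value. It was at 38.5 and 37.8 scaled RPKM in the controls and at 25.2 and 26.9 in the si-circZFR libraries, with a log2FC of -0.53 ± 0.16 (standard error) and an FDR of 0.150 by limma. The difference was several times the gap within either group. *HNRNPA2B1*, *HNRNPA3* and *HNRNPD* had positive log2FC of 0.23, 0.21 and 0.27, and for the latter 2 both si-circZFR libraries were above both controls. The value of *HNRNPA2B1* was 0.02 without si-circZFR 2 and 0.46 without si-circZFR 1. *HNRNPA0* was lower in both si-circZFR libraries, with a log2FC of -0.40 (FDR = 0.313 by limma). *HNRNPAB*, *HNRNPDL* and the paralog *HNRNPA1L2* were at -0.09, 0.07 and -0.16.

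Reads of *HNRNPA1* are uncertain, because several processed copies of it are listed as genes of their own at similar levels, and how reads that match more than 1 of them were counted is not given in the sources used here. *HNRNPA1P7* was at 43.7 and 41.4 scaled RPKM in the controls and 23.9 and 29.3 after silencing, *HNRNPA1P10* at 37.7 and 41.4 against 23.1 and 16.5, and *HNRNPA1P48* at 48.2 and 60.7 against 35.5 and 32.0. In all 3 both si-circZFR libraries lay below both controls, with log2FC of -0.66, -0.98 and -0.67. Of the 50-base windows across these copies on GRCh38, 58.7%, 66.7% and 68.4% occur letter for letter in the *HNRNPA1* transcript. The stretch that matches the last 60 coding bases is shown because it shows how little separates the copies, from chromosome 18 (32412214 to 32412273, minus strand), chromosome 19 (11666069 to 11666128, minus strand) and chromosome 16 (51646721 to 51646780, plus strand) of GRCh38. Capitals mark bases that differ from *HNRNPA1*:
HNRNPA1: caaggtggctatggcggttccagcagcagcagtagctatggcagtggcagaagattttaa
HNRNPA1P7: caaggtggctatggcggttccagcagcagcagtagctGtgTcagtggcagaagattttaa
HNRNPA1P10: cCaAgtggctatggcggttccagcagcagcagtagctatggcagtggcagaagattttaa
HNRNPA1P48: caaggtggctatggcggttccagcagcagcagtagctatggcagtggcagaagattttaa
In this stretch *HNRNPA1P7* and *HNRNPA1P10* differ from the parent at 2 bases each and *HNRNPA1P48* at 0.
When the reads of *HNRNPA1* and these 3 copies were summed, they gave 266.5 and 283.0 scaled CPM (reads normalised to library size) in the controls and 169.4 and 168.5 after silencing. The summed difference was -0.70 on the log2 scale, beside -0.55 for *HNRNPA1* alone on this scale and -0.58 for the sum over *HNRNPA1L2* and every *HNRNPA1* copy at an RPKM of at least 1 in 2 libraries (11 genes with *HNRNPA1*). For each sum the exact permutation p was 0.333, the smallest that 2 against 2 libraries allow. The more diverged *HNRNPA1P33*, with 11.3% of windows shared, was at 20.6, 15.4, 22.3 and 34.1, with a log2FC of 0.60. *HNRNPA3* had a copy listed above itself, *HNRNPA3P6*, at 46.3 to 75.0 against 12.8 to 17.0 scaled RPKM, and 65.7% of its windows are shared.

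**Figure D4:**
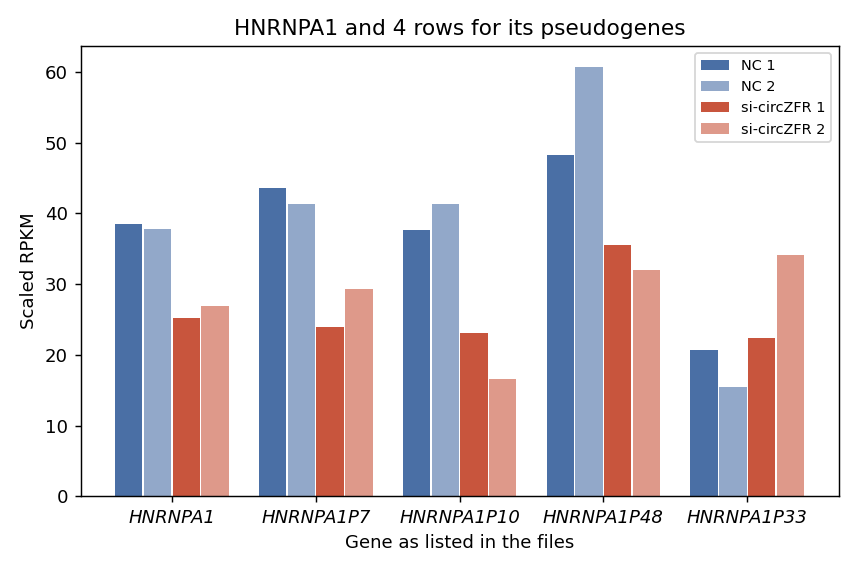
Scaled RPKM of *HNRNPA1* and of 4 copies listed as separate genes, with a bar per library (blue NC, red si-circZFR, the lighter shade for replicate 2). In *HNRNPA1*, *HNRNPA1P7*, *HNRNPA1P10* and *HNRNPA1P48* both red bars are lower than both blue bars, and in *HNRNPA1P33* they are higher.

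The gene with the highest log2FC of the group was *HNRNPM* (chromosome 19, 8444767 to 8489114 of GRCh38, plus strand), whose protein binds GU-rich RNA and is known for exon choice in *CD44*. *HNRNPM* was at 28.4 and 25.7 scaled RPKM in the controls and at 36.6 and 51.1 in si-circZFR 1 and si-circZFR 2, so that the si-circZFR libraries were above the controls but far from each other. Its log2FC was 0.66 (standard error 0.21, FDR = 0.169 by limma), and 0.43 without si-circZFR 2. *HNRNPH3*, of the family that binds runs of G, was at 30.8 and 26.1 in the controls and at 38.2 and 43.1 after silencing, with a log2FC of 0.50 ± 0.18 (standard error) and an FDR of 0.190 by limma. *HNRNPUL2* was at 13.5 and 13.0 in the controls and at 16.9 and 20.8 after silencing, with a log2FC of 0.47 ± 0.17 (standard error) and an FDR of 0.202 by limma. The readthrough *HNRNPUL2-BSCL2* overlaps *HNRNPUL2*, was listed at 22.6 to 25.3 scaled RPKM and had a log2FC of 0.07, so reads of the shared exons could belong to either.

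The relatives of these genes had log2FC of other sizes and signs. *HNRNPF*, in the same family as *HNRNPH3*, had a log2FC of -0.36 with both si-circZFR libraries below the controls, whereas *HNRNPH1* and *HNRNPH2* were at 0.32 and 0.23. *HNRNPR*, *SYNCRIP* (hnRNP Q), *HNRNPU* and *HNRNPUL1* were at -0.06, -0.09, 0.13 and -0.04, each with a 95% interval that spans 0. In the K and PCBP family, *HNRNPK*, *PCBP1* and *PCBP2* had log2FC of -0.50, -0.54 and -0.21, and *PCBP4* 0.19. For *PCBP1* the interval ran from -1.24 to 0.15, and si-circZFR 2 was well below si-circZFR 1. The log2FC of *PCBP1* was -0.23 without si-circZFR 2 and -0.84 without si-circZFR 1. *HNRNPC* had a log2FC of -0.48 (95% interval -0.96 to 0.00, FDR = 0.236 by limma), and its relatives *RALY* and *HNRNPCL1* were at -0.05 and 0.06. Its copy *HNRNPCP2*, with 58.3% of windows shared, was at 29.95, 49.48, 28.11 and 35.22 scaled RPKM, with overlapping groups. *HNRNPKP4* and *PCBP2P2* stood at 40.6% and 29.0% of the level of *HNRNPK* and *PCBP2*, with 13.8% and 12.7% of windows shared. *HNRNPLP2*, a copy of *HNRNPL* with 21.6% of windows shared, stood at 19.7% of the level of *HNRNPL*. It was at 20.29 and 21.48 scaled RPKM in the controls and at 16.76 and 13.15 after silencing, with a log2FC of -0.46. The readthrough *RPL36A-HNRNPH2* was at 7.74 to 10.3. Reads of *HNRNPC*, *HNRNPK*, *PCBP2*, *HNRNPL* and *HNRNPH2* are therefore uncertain too.

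The 3′UTRs were searched on the transcript strand for TGACTC alone, with a C before it, with an A after it or with both, letters that an earlier look at these libraries had brought up. The search used the MANE transcripts of GENCODE v44. All 43 genes tested had a 3′UTR there, and 5 of them (11.6%) held CTGACTC with or without the final A, against 11.3% of 10350 genes. The 5 windows are shown because their genes differ in direction, with the match in capitals:
HNRNPA1: taaggcacacCTGACTCttaggactagc
HNRNPD: gaaaagtttgCTGACTCAtggtcaaaat
HNRNPH1: atcctgatcaCTGACTCttggtcaacct
PCBP2: ctatttttccCTGACTCcatgcttggtt
RALY: aatccctttaCTGACTCttcatcatcag
Their log2FC were -0.53, 0.27, 0.32, -0.21 and -0.05 in this order, with a median of -0.05. The median was -0.06 for all 1174 genes with such a match and 0.02 for the 7335 genes with none of the letters. Because the letters came from these same libraries, the medians describe them and do not test them. Neither TGACTC nor its reverse complement occurs in the si-circZFR strand shown above. *HNRNPLL*, *TRA2B* and *SRSF7* held none in their 3′UTRs. The MANE transcripts searched can differ from the gene models behind the RPKM. For *HNRNPA1*, the smallest length that gave whole reads was 1925 bases, beside a searched 3′UTR of 2543 bases.

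Genes that act on or beside these regulators were counted from lists. Of the 14 kinases, importers, methylases and export factors of SR and hnRNP proteins that were tested, 0 passed the FDR and fold thresholds by limma, and at an unadjusted p under 0.05, 1 was lower (7.1%, against 11.8% of all genes) and 2 were higher (14.3%, against 9.51%). The median log2FC was 0.01, against -0.01 over all genes. *PRMT1*, which methylates arginines of hnRNPs, was at 148.7 and 196.0 scaled RPKM in the controls and 115.4 and 92.1 after silencing, with a log2FC of -0.72 (FDR = 0.176 by limma). *CLK1*, a kinase of SR proteins, was at 8.11, 6.34, 10.6 and 9.79 and had a log2FC of 0.45 (FDR = 0.223 by limma), or 0.30 without NC 2, and *TNPO3*, which imports SR proteins, was at 19.8, 17.7, 23.8 and 26.6 with 0.41 (FDR = 0.229 by limma).
Of 14 factors of nonsense-mediated decay, 0 passed by limma, and at an unadjusted p under 0.05, 0 were lower (against 11.8% of all genes) and 1 was higher (7.1%, against 9.51%). Their median log2FC was 0.23, but NC 2 was below NC 1 for 11 of the 14, by a median of 0.29 (log2), which is more than the median between the groups. *UPF3A* was at 7.31 and 3.72 in the controls and 9.31 and 11.4 after silencing, with a log2FC of 0.85 (FDR = 0.185 by limma). Left out in turn, NC 1 gave 1.26 (FDR = 0.0330 by limma), NC 2 gave 0.45 (FDR = 0.286), si-circZFR 1 gave 0.99 (FDR = 0.288) and si-circZFR 2 gave 0.72 (FDR = 0.627). *EIF4A3*, of the exon junction complex, was at 51.6 and 58.3 in the controls and 42.4 and 41.1 after silencing, with a log2FC of -0.39. *UPF1*, the helicase of the pathway, was at 15.7 and 12.4 in the controls and 17.7 and 17.9 after silencing, with a log2FC of 0.33 that was 0.17 without NC 2.

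Other RNA-binding splicing regulators held the lowest FDR among the lists. Of 43 tested, 0 passed by limma, and at an unadjusted p under 0.05, 7 were lower (16.3%, against 11.8% of all genes) and 2 higher (4.7%, against 9.51%). The median log2FC was 0.03. *RBFOX2*, whose protein binds GCAUG beside alternative exons, was at 14.3 and 14.2 scaled RPKM in the controls and at 6.08 and 5.99 after silencing. The log2FC of *RBFOX2* was -1.12 (standard error 0.15, FDR = 0.0749 by limma), and the FDR by limma was 0.0307 without NC 1, 0.144 without NC 2, 0.128 without si-circZFR 1 and 0.270 without si-circZFR 2. *CHERP* was at 9.16 and 7.41 in the controls and 5.04 and 4.03 after silencing, and *MBNL2* at 9.17 and 10.9 against 6.40 and 6.08, with log2FC of -0.75 and -0.60 (FDR = 0.124 and 0.136 by limma).

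Among 23 tested genes known for splicing events under hnRNP or SR control, 0 passed by limma, and at an unadjusted p under 0.05, 2 were lower and 2 higher (8.7% each, against 11.8% and 9.51% of all genes). The median log2FC was 0.09. *MKNK2*, a kinase gene whose 3′ exons *SRSF1* chooses between, was at 8.77 and 7.35 in the controls and at 17.1 and 17.0 after silencing, with a log2FC of 1.0 (FDR = 0.0825 by limma). The FDR of *MKNK2* by limma was 0.0300 without NC 1, 0.144 without NC 2, 0.173 without si-circZFR 1 and 0.316 without si-circZFR 2. *SMN2*, a target of TRA2B, was at 7.29, 11.3, 4.21 and 2.37, with a log2FC of -1.27 (FDR = 0.110 by limma), but it is nearly identical to *SMN1*, so its reads are uncertain. The FDR of *SMN2* by limma was 0.0419 without NC 1, 0.207 without NC 2, 0.0716 without si-circZFR 1 and 0.400 without si-circZFR 2. *FAS* was at 5.83, 5.40, 3.38 and 3.39, with a log2FC of -0.59 (FDR = 0.131 by limma). *BPTF*, a transcript with a splicing event in the study, was at 12.5 and 7.02 in the controls and at 12.5 and 10.9 after silencing, with a log2FC of 0.28 that turned to -0.10 without NC 2. These are whole-gene levels, and exon use was not analysed here.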

How the data were processed

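The authors prepared 4 libraries from total RNA (2 NC, 2 si-circZFR, 24 h) with an Ion Total RNA-Seq kit, sequenced them on the Ion Proton and deposited RPKM per gene, with a file per library. The article names hg38 and the labels GRCh37, and the aligner, the counter and any use of strand are not given in the sources used here. The article's batch correction by SVA could not be seen in the deposited RPKM, since they gave whole reads (tolerance 0.02) for 24237 of 24289 genes above 0 (99.8%). Recovered reads are the smallest whole-number solution, so a gene's depth can be understated. Depth limits weak genes, and counting errors cover counting only. 0 columns were left unmapped.

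A scaling factor per library came from the mean log ratio to a reference. Before the mean was taken, 30% of ratios and 5% of levels were dropped at each end. The 13885 genes that reached an RPKM of 1 in 2 or more libraries entered the test by limma 3.58.1 in R 4.3.3 on log2(scaled RPKM + 1), which understates changes of low genes, with a trended prior variance and Benjamini-Hochberg adjustment. A gene passed at FDR under 0.05 with |log2FC| over 1. The steps were tested on simulated data, in which some short genes with few reads were called falsely. Positions and 3′UTRs are from GENCODE v44 (GRCh38), the siRNA from the study's oligo list.

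Values in every library are given for *HNRNPLL* and its relatives, the members with the smallest p in each direction, the 5 with the highest levels, and 3 genes of each list with the smallest p; others named were chosen after their values were seen. The members and lists were chosen with earlier results of these data known. Alternatives were other scaling, pseudocount, filters, a replicate block, a length correction, a constant prior variance, limma-voom on recovered reads, and leaving out each library.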

Additional observations from a re-analysis of the deposited data

How the results depend on the processing

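With 2 libraries per group and p-values that pool the spread over genes, the counts depended strongly on single libraries. The 8 genes passing over all genes tested became 2 with a pseudocount of 0.1, 0 with no filter, 167 with a filter of RPKM of at least 5, 17 with a replicate block, 14 with a length correction, 0 with a constant prior variance, 300 by limma-voom, and 0 to 1019 when a library was left out, where a group of 1 is assumed to vary like the other. None of the 43 tested genes of the group described here passed under any alternative. Lower regulators at an unadjusted p under 0.05 numbered 0 without scaling and 0 to 7 with a library left out, and higher ones 2 with the length correction and 0 to 8 with a library left out. The shares of all genes moved too, to 6.94% lower without scaling, 10.6% higher with the length correction, and 5.41% to 18.6% lower and 3.50% to 16.7% higher with a library left out. The median log2FC of the regulators was 0.15 without scaling, as for all genes. *HNRNPLL* was below 0 and short of the threshold in every alternative, with FDR from 0.172 to 0.866.

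The replicate block left 0 regulators past the thresholds; the labels tie same-numbered libraries by number alone, and their deviations correlated at 0.07. Reversals were small: without scaling, *HNRNPL*, *PTBP2* and *HNRNPUL1* went to 0.15, 0.072 and 0.154, and with the length correction *HNRNPL* to 0.008. With a library left out, log2FC ranged from -0.112 to 0.031 for *HNRNPL*, -0.096 to 0.344 for *PTBP1*, -0.136 to 0.012 for *PTBP2*, -0.083 to 0.009 for *HNRNPUL1*, -0.419 to 0.009 for *PCBP2* and -0.099 to 0.657 for *BPTF*. *ZFR* missed the FDR threshold with the pseudocount of 0.1 (0.0617), no filter (0.227) and the constant prior variance (0.0645). *RBFOX2* and *MKNK2* passed by limma-voom (FDR = 0.0226 and 0.0322), and *RBFOX2* with the stricter filter (FDR = 0.0306). The cause of these shifts was not tested.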
